A study of Homo sapiens with 10 samples.

Results

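The S100 genes encode small calcium-binding proteins, and 9 of them, of 20289 genes in the expression table, are described here in 2 human pancreatic ductal adenocarcinoma cell lines that survived a ferroptosis inducer: S100P, S100A2, S100A4, S100A6, S100A10, S100A11, S100A13, S100A14 and S100A16. They were chosen by symbol with the FPKM levels and IKE responses of these libraries already known, above all the rise of S100P in both lines, so all their values are a description and carry no p. Imidazole ketone erastin (IKE), a derivative of erastin that blocks cystine uptake, was given for 24 h at 10 µM to CFPAC-1 cells (2 libraries) and at 1 µM to PANC-1 cells (4 libraries). CFPAC-1 and PANC-1 cells with 0.1% DMSO (2 libraries each) were the controls. Dead cells and debris were removed before RNA was taken, so a change within cells and a change in which cells survived cannot be told apart. The same holds for fewer cells of a kind and less RNA per cell. IKE doses differed between the lines, so dose and line cannot be told apart either, and each line is 1 established culture model of the tumour.

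S100 proteins fold into paired EF hands, the helix-loop-helix calcium site, and most act as dimers that expose a binding face for a partner protein when calcium rises. Most of their genes lie together on the long arm of chromosome 1 in band 1q21, while S100P lies on the short arm of chromosome 4. S100P is widely used as a marker of pancreatic cancer, binds the membrane-cytoskeleton linker ezrin and the scaffold IQGAP1 inside cells, and is a ligand of the receptor AGER (RAGE) outside them. S100A10 differs from the rest in that its EF hands do not bind calcium; it sits in a complex with annexin A2 that captures plasminogen at the cell surface.

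RefSeq promoter windows (GRCh38.p14), each from 250 bases before to 50 bases after a start of transcription, were found for 9 of the 9 genes, 13 windows in all. They are shown for S100P, whose level differed between IKE and DMSO in both lines, for S100A14, which differed with IKE in CFPAC-1, and for S100A4, whose level differed most between the lines in the upward direction. The windows lie at chr4:6693628-6693927 (plus strand) for S100P, at chr1:153616276-153616575 (minus strand) for S100A14 and at chr1:153545757-153546056 (minus strand) for S100A4, and each reads 5′ to 3′ along its gene. Capitals mark matches, on either strand, to 4 motifs: the composite element of ATF4 and its C/EBP partners (TGATGNAA), the core of the antioxidant response element (TGACNNNGC), the AP-1 site (TGANTCA) and the TATA box (TATAAA).
S100P: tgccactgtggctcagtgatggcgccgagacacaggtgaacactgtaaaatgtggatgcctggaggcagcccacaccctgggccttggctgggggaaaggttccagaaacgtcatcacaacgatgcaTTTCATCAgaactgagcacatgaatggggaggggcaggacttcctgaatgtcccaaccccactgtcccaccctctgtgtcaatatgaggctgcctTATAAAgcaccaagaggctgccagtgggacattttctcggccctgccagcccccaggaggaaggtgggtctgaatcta
S100A14: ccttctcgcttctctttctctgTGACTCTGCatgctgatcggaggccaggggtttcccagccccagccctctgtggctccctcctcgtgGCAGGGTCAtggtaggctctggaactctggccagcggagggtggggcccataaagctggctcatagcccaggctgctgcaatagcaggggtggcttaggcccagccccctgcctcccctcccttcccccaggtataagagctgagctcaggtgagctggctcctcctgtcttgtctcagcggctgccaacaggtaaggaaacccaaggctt
S100A4: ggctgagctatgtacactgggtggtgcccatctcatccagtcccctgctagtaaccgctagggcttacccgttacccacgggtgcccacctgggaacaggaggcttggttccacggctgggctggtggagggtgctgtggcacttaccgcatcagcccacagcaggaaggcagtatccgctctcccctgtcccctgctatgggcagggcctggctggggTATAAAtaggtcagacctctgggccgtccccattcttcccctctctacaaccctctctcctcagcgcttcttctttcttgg

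The S100P window held the composite element on the opposite strand, at bases -123 to -116 from the start, and a TATA box at -28 to -23. The composite element was found in no window of the other 8 genes, against 3.62% of all 35116 windows. The S100A14 window held the antioxidant core at -228 to -220 and, on the opposite strand, at -161 to -153. A match to that core was also found in 1 of 2 windows of S100A16 and in 1 of 3 windows of S100A13, against 13.3% of all windows. The S100A4 window had a TATA box at -31 to -26, as did 1 window of S100A13, against 11.5% of all windows. An AP-1 site was found in 1 of 2 windows of S100A2 at -52 to -46, against 7.71% of all windows. AP-1 and antioxidant letters can overlap, and none did in these windows. Windows of S100A6, S100A10 and S100A11 held none of the 4 motifs and 22 to 32 CG dinucleotides each. S100P, S100A14 and S100A2 windows had 4 to 5, those of S100A16 had 3 and 8, that of S100A4 had 8 and those of S100A13 had 11 to 19. The median window had 14. A match is a description of letters and not of a factor bound there.

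All values are FPKM (fragments scaled by transcript length and library size) as deposited, so levels of different genes are compared per length. Each library summed to 405937 to 472665 FPKM and had 11604 to 12248 genes at 1 FPKM or more. The gene with the highest value in each library was RPS29, at 2.46% to 4.54% of the sum, and it was lowest in CFPAC-1 DMSO replicate 1. The table holds no counts, so depth and counting error are unknown. Keratin 19 was at 721 to 2228 FPKM in all libraries, while EPCAM averaged 155 and 157 FPKM in CFPAC-1 with IKE and DMSO and 10.6 and 9.50 FPKM in PANC-1 with IKE and DMSO. Acinar markers summed to at most 0.27 FPKM and islet markers to at most 0.03 FPKM per library. The endothelial list summed to 19.2 to 22.3 FPKM in CFPAC-1, mostly PECAM1, and to 0.25 to 0.52 FPKM in PANC-1. The fibroblast list summed to 18.2 to 25.2 FPKM in PANC-1 and 4.41 to 6.54 FPKM in CFPAC-1, mostly COL1A1. The keratinocyte list summed to 6.99 to 9.67 FPKM, mostly KRT10. The leukocyte list summed to 65.1 to 69.7 FPKM in CFPAC-1 and 24.2 to 33.1 FPKM in PANC-1, through CD68 in both lines and LYZ in CFPAC-1, with its defining gene PTPRC at 0 to 0.03 FPKM.

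The 9 genes together took 1572 to 2180 FPKM per library, or 0.387% to 0.461% of the sum, and 48.4% to 59.9% of that was S100A6. In every group S100A6 stood highest and S100A10 next. In CFPAC-1 with IKE and with DMSO the order below them was S100A11, S100A16, S100A13, S100A14, S100P, S100A4 and S100A2. In PANC-1 with IKE it was S100A4, S100A11, S100A13, S100A16, S100P, S100A2 and S100A14, and with DMSO S100A2 stood above S100P. The libraries of neighbours in these orders did not overlap, except S100A4 and S100A11 in PANC-1 with IKE.

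**Figure D1:**
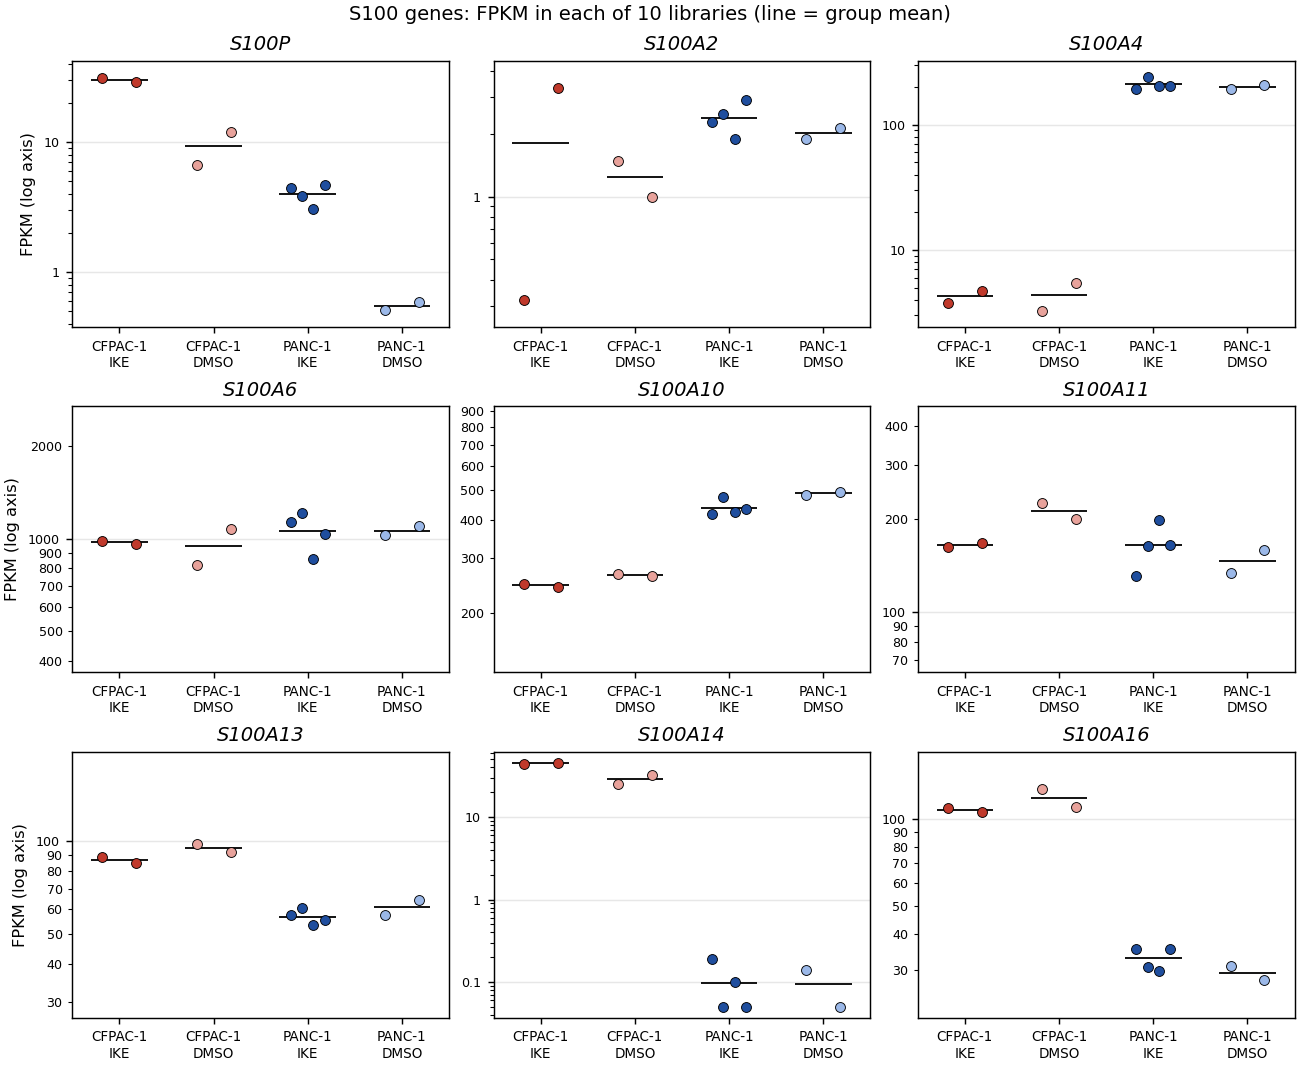
FPKM (log axis, its own range in each panel) of the 9 S100 genes; each point is a library, the groups run CFPAC-1 IKE, CFPAC-1 DMSO, PANC-1 IKE and PANC-1 DMSO, and the black line is the group mean. S100P stands higher with IKE in both lines, S100A4 sits near 200 FPKM in PANC-1 and below 6 FPKM in CFPAC-1, and S100A14 sits above 25 FPKM in CFPAC-1 and below 0.2 FPKM in PANC-1.

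In CFPAC-1, 2 of the 9 genes differed with IKE at an adjusted p under 0.05 in limma, both higher (S100P and S100A14), where 1.32% of the 13077 tested genes did, 0.864% higher and 0.459% lower. In PANC-1, 1 of 9 did, again higher (S100P), where 2.38% of all genes did, 1.21% higher and 1.17% lower. These genes were taken with such results known, so the counts are printed beside the background and nothing is read from them. All 9 had at least 1 FPKM in at least 2 libraries and so entered the fit, S100A14 through CFPAC-1 alone. The median log2 fold change of the 9 was -0.00 in CFPAC-1 and 0.07 in PANC-1, against 0 and -0.01 over all genes tested. IKE libraries of CFPAC-1 lay wholly above the DMSO libraries for 2 genes, wholly below for 4 and overlapped them for 3, where 46.9% of all genes had groups apart (23% above and 23.9% below). In PANC-1 they lay above for 1, below for 1 and overlapped for 7, where 25.9% of all genes had groups apart (12.3% above and 13.6% below). The difference between the responses of the lines was called for 0 of the 9 by limma and under each alternative processing, where 0.336% of all genes were called (0.107% higher and 0.229% lower). At an unadjusted p under 0.05 that test gave 2 of the 9 and 12.3% of all genes, and nothing is read from this count either. With IKE against DMSO the share of all genes at an unadjusted p under 0.05 was 13.6% in CFPAC-1 and 17.6% in PANC-1.

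**Figure D2:**
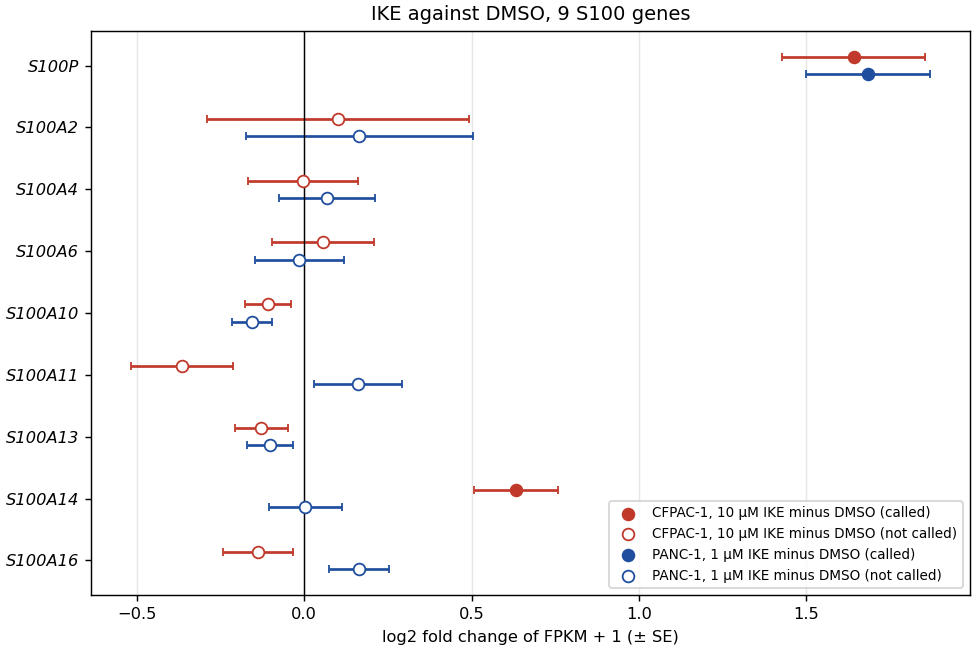
Log2 fold change of FPKM + 1 with IKE against DMSO for the 9 S100 genes, with the standard error from limma as bars; red is CFPAC-1 at 10 µM, blue is PANC-1 at 1 µM, and filled points passed an adjusted p of 0.05. S100P is the farthest to the right in both lines, at 1.64 and 1.68, and the others lie between -0.36 and 0.63.

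S100P (ENSG00000163993, chromosome 4, 6693069 to 6697170 on the plus strand in GENCODE 29, GRCh38) was higher with IKE in both lines. In CFPAC-1 it had 31.2 and 29.3 FPKM with IKE, against 6.73 and 11.9 FPKM with DMSO. In PANC-1 it had 4.44, 3.88, 3.08 and 4.67 FPKM with IKE, against 0.51 and 0.59 FPKM with DMSO. No IKE library overlapped a DMSO library of its line, and the lowest IKE value was 2.45 times the highest DMSO value in CFPAC-1 and 5.22 times in PANC-1. Means were 30.2 ± 1.39 FPKM with IKE and 9.34 ± 3.69 FPKM with DMSO in CFPAC-1 (SD, n = 2 each). In PANC-1 they were 4.02 ± 0.708 FPKM with IKE (SD, n = 4) and 0.55 ± 0.0566 FPKM with DMSO (SD, n = 2). The ratio of means was 3.24 in CFPAC-1 and 7.30 in PANC-1.

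On the scale of log2(FPKM + 1) the S100P fold was 1.64 ± 0.21 in CFPAC-1 and 1.68 ± 0.18 in PANC-1 (SE), rank 7 of 13077 genes from the highest fold in CFPAC-1 and rank 2 in PANC-1. The difference between the lines on that scale was 0.04 ± 0.28. Adding 1 FPKM shrinks the PANC-1 fold more, since its DMSO level is under 1 FPKM: with 0.1 FPKM added the PANC-1 fold was 2.65 and the difference 0.91 ± 0.34, still not called. The DMSO libraries of CFPAC-1 differed from each other by 1.78 times. Without DMSO replicate 1 the CFPAC-1 fold was 1.27, and without DMSO replicate 2 it was 2.01. In the same replicate 1, S100A4, S100A6 and S100A14 were also the lower of the DMSO pair, as was RPS29, while the other 5 genes (S100A2, S100A10, S100A11, S100A13 and S100A16) were the higher; the part of that library in the fold was not tested beyond leaving it out. PANC-1 IKE replicate 3 had the lowest S100P of its group, and without it the PANC-1 fold was 1.78.

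**Figure D3:**
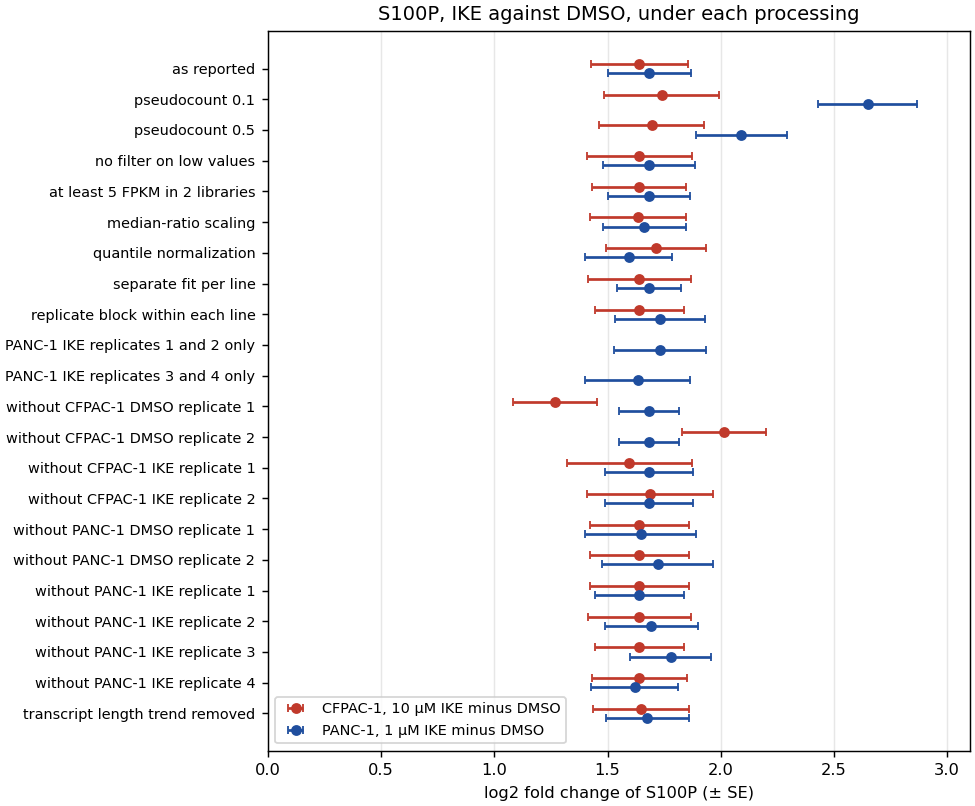
Log2 fold change of S100P with IKE against DMSO (± SE) as reported and under each alternative processing, CFPAC-1 in red and PANC-1 in blue. All points lie above 1.2: CFPAC-1 moves to 1.27 and 2.01 when DMSO replicate 1 or 2 is left out, and PANC-1 moves to 2.65 and 2.09 with a smaller pseudocount.

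S100P with DMSO stood at 0.51 and 0.59 FPKM in PANC-1, against 6.73 and 11.9 FPKM in CFPAC-1, and the mean was 17.0 times lower in PANC-1. With IKE the PANC-1 mean was 7.52 times lower than the CFPAC-1 mean. The highest PANC-1 library with IKE, at 4.67 FPKM, lay below the lowest CFPAC-1 library with DMSO, at 6.73 FPKM. All genes of the table were also ranked within each library, and the ranks were averaged over the libraries of a group. By that rank S100P stood above 87.1% of genes in CFPAC-1 with IKE and 64.0% with DMSO. In PANC-1 it stood above 52.8% with IKE and 39.3% with DMSO.

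The genes whose log2(FPKM + 1) was most like that of S100P over the 10 libraries were NOB1 (Pearson r = 0.991), a ribosome assembly factor, WARS1 (0.988), the cytosolic tryptophanyl tRNA synthetase, VAT1 (0.970), SLC20A1 (0.970), a phosphate carrier, LONRF1 (0.967) and GPT2 (0.965), the mitochondrial alanine aminotransferase. The libraries fall into 4 groups, so these values mostly rank genes by group means, and they are given as a description. With each value set against the mean of its line, the 6 closest genes were PCK2 (0.994), the mitochondrial phosphoenolpyruvate carboxykinase, TXNRD1 (0.980), thioredoxin reductase, WARS1 (0.975), NOB1 (0.975), EIF1 (0.974), a start codon selection factor, and CTSL (0.973), a lysosomal protease. PCK2 had 37.3 and 37.2 FPKM with IKE and 13.1 and 16.6 FPKM with DMSO in CFPAC-1. In PANC-1 it had 22.2, 21.0, 17.0 and 21.3 FPKM with IKE and 7.74 and 7.84 FPKM with DMSO. PCK2, like S100P, was lowest in replicate 1 of the CFPAC-1 DMSO pair and in replicate 3 of the PANC-1 IKE group. It was picked by these same deviations, so this likeness is part of the choice and no further trait. TXNRD1 differed from S100P in level between the lines: it averaged 286 ± 30.4 FPKM in PANC-1 with IKE and 82.7 ± 3.75 FPKM in CFPAC-1 with IKE (SD, n = 4 and 2).

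**Figure D4:**
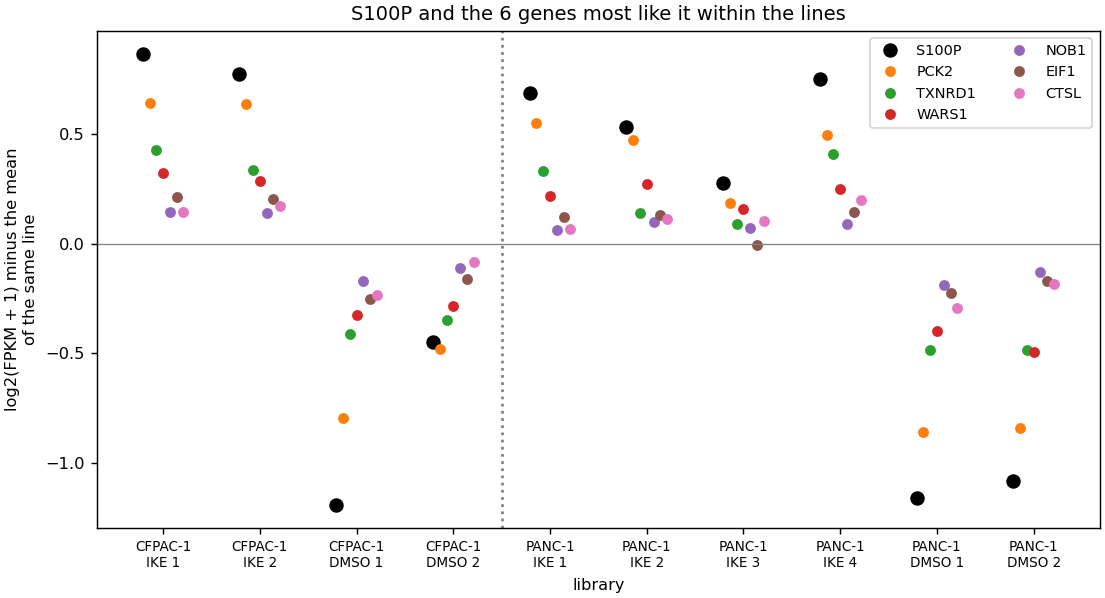
Log2(FPKM + 1) of S100P (black) and of the 6 genes with the highest Pearson r to it, each minus its mean over the libraries of the same line, in the 10 libraries; the dotted line parts CFPAC-1 from PANC-1. All 7 genes lie above their line mean in the IKE libraries, except EIF1 in PANC-1 IKE replicate 3, and below it in the DMSO libraries; S100P spans the widest range.

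S100A14 and S100A16 are neighbours at 1q21 (153614255 to 153616986 and 153606886 to 153613145 on the minus strand), and S100A14 is found mainly in epithelia. S100A14 (ENSG00000189334) had 43.5 and 45.6 FPKM in CFPAC-1 with IKE, against 25.2 and 31.9 FPKM with DMSO. The groups did not overlap, and the log2 fold change was 0.63 ± 0.13 (SE). This call did not hold with a pseudocount of 0.1 or 0.5, with no filter on low values, in a fit of CFPAC-1 alone, with the replicate block, or without CFPAC-1 DMSO replicate 1, CFPAC-1 IKE replicate 1 or 2, or PANC-1 IKE replicate 3. The fold ran from 0.47 to 0.80 over these and the other alternatives. In PANC-1, S100A14 was at 0.19, 0.05, 0.10 and 0.05 FPKM with IKE and at 0.14 and 0.05 FPKM with DMSO, too low for a fold. S100A16 (ENSG00000188643) had 109 and 105 FPKM in CFPAC-1 with IKE, against 126 and 110 FPKM with DMSO. PANC-1 had 35.4, 30.7, 29.7 and 35.5 FPKM with IKE, against 30.8 and 27.6 FPKM with DMSO. Its IKE libraries lay below the DMSO libraries in CFPAC-1 and overlapped them in PANC-1, with folds of -0.14 ± 0.10 and 0.16 ± 0.09, neither called. Over the 10 libraries S100A14 and S100A16 were the most alike of all pairs of the 9, with r = 0.983. Such values mostly rank genes by group means, and both genes were lower in PANC-1. With IKE in CFPAC-1, S100A14 lay above its DMSO libraries and S100A16 below.

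S100A10, S100A11 and S100A6 are the annexin-binding members, and they were the most abundant S100 genes in CFPAC-1. S100A10 (ENSG00000197747, chromosome 1, 151982915 to 151994390), the partner of annexin A2, had 249 and 242 FPKM in CFPAC-1 with IKE, against 266 and 263 FPKM with DMSO. Values in PANC-1 were 417, 474, 425 and 435 FPKM with IKE, against 483 and 493 FPKM with DMSO. It was the single gene of the 9 with every IKE library below every DMSO library in both lines. Over all tested genes 23.9% lay below in CFPAC-1 and 13.6% in PANC-1, and the share below in both was not computed. The S100A10 folds were small, -0.11 ± 0.07 in CFPAC-1 and -0.16 ± 0.06 in PANC-1, and neither was called. The PANC-1 fold was called under quantile normalization, at -0.26, and without PANC-1 IKE replicate 2, at -0.20.

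S100A11 (ENSG00000163191, chromosome 1, 152032506 to 152047907), which binds annexin A1, had 162 and 167 FPKM in CFPAC-1 with IKE, against 226 and 200 FPKM with DMSO. PANC-1 libraries had 131, 164, 199 and 164 FPKM with IKE, against 133 and 158 FPKM with DMSO. The CFPAC-1 groups were apart and the PANC-1 groups overlapped. The folds were -0.36 ± 0.15 and 0.16 ± 0.13, and their difference was 0.53 ± 0.20, none of them called. S100A6 (ENSG00000197956, chromosome 1, 153534599 to 153536244), calcyclin, had 983 and 962 FPKM in CFPAC-1 with IKE, against 819 and 1071 FPKM with DMSO. Its PANC-1 values were 1132, 1207, 857 and 1037 FPKM with IKE, against 1024 and 1099 FPKM with DMSO. Groups overlapped in both lines, with folds of 0.05 ± 0.15 and -0.01 ± 0.13. S100A6 and S100A11 each overlap an antisense transcript, and the use of strand in counting is unknown here.

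S100A4 (ENSG00000196154, chromosome 1, 153543613 to 153550136), a regulator of non-muscle myosin that marks mesenchymal and metastatic cells, did not differ with IKE beyond the spread of its libraries. In CFPAC-1 it had 3.80 and 4.73 FPKM with IKE, against 3.28 and 5.46 FPKM with DMSO. PANC-1 cells had 193, 238, 203 and 205 FPKM with IKE, against 193 and 206 FPKM with DMSO. The folds were -0.00 ± 0.16 and 0.07 ± 0.14. S100A13 (ENSG00000189171, chromosome 1, 153618787 to 153631360), which takes part in the export of FGF1 and interleukin 1 alpha, had 88.6 and 85.0 FPKM in CFPAC-1 with IKE, against 97.7 and 92.3 FPKM with DMSO. For PANC-1 the values were 57.6, 60.7, 53.2 and 55.3 FPKM with IKE, against 57.5 and 64.3 FPKM with DMSO. It lay below DMSO in CFPAC-1 and overlapped it in PANC-1, with folds of -0.13 ± 0.08 and -0.10 ± 0.07, neither called.

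S100A2 (ENSG00000196754, chromosome 1, 153561108 to 153567890), a partner and target of p53, was low in all libraries. In CFPAC-1 it had 0.32 and 3.32 FPKM with IKE, 10.4 times apart, against 1.48 and 1.00 FPKM with DMSO. The PANC-1 values were 2.29, 2.49, 1.89 and 2.92 FPKM with IKE, against 1.90 and 2.13 FPKM with DMSO. Groups overlapped in both lines. The CFPAC-1 fold of 0.10 ± 0.39 became 0.96 without IKE replicate 1 and -0.75 without IKE replicate 2, so these libraries give it no direction.

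With DMSO, 7 of the 9 genes (77.8%) differed between PANC-1 and CFPAC-1, 2 higher and 5 lower in PANC-1. That share is near the 78.7% of all tested genes that did (43.4% higher and 35.2% lower). Libraries of the lines were apart for 8 of the 9, where 89.3% of all genes were (49% above and 40.3% below). The median log2 fold change of the 9 was -0.54, against 0.12 over all genes; scaling by median ratios moved the median of all genes by -0.12, and no called gene of the 9 changed direction with it. S100A4 was 45.6 times higher in PANC-1, at 193 and 206 FPKM against 3.28 and 5.46 FPKM in CFPAC-1, a log2 fold change of 5.25 ± 0.16. S100A10 was 1.84 times higher in PANC-1 (0.88 ± 0.07). S100A14 averaged 0.095 ± 0.0636 FPKM in PANC-1 and 28.5 ± 4.74 FPKM in CFPAC-1 (SD, n = 2 each), and its log2 fold change of -4.75 ± 0.13 became -7.23 with a pseudocount of 0.1. S100A16 was 4.06 times lower in PANC-1 (-1.98 ± 0.10), S100A13 1.56 times lower (-0.63 ± 0.08) and S100A11 1.46 times lower (-0.54 ± 0.15). The S100A11 call did not hold without CFPAC-1 DMSO replicate 1 or PANC-1 DMSO replicate 1. S100A6 overlapped between the lines, and S100A2 was higher in both PANC-1 libraries but not called (0.44 ± 0.39), except without CFPAC-1 IKE replicate 1 or 2.

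Epithelial and mesenchymal markers also differed between the lines, the mesenchymal ones in both directions. Of 6 epithelial markers 1 was called higher and 4 lower in PANC-1 with DMSO (median log2 fold change -2.01). Of 4 mesenchymal markers 2 were higher and 2 lower (median -0.40). Over all tested genes 78.7% were called between the lines, 43.4% higher and 35.2% lower in PANC-1, so nothing is read from these counts. E-cadherin (CDH1) averaged 14.1 FPKM in PANC-1 and 92.1 FPKM in CFPAC-1. Keratin 18 (KRT18) went the other way, with 1627 FPKM in PANC-1 and 1331 FPKM in CFPAC-1. Keratin 8 (KRT8) averaged 2877 FPKM in PANC-1 and 2578 FPKM in CFPAC-1, with libraries that overlapped. Vimentin (VIM), at 1996 FPKM in PANC-1 and 550 FPKM in CFPAC-1, and ZEB1, at 10.7 FPKM in PANC-1 and 6.59 FPKM in CFPAC-1, were higher in PANC-1. N-cadherin (CDH2), at 14.5 FPKM in PANC-1 and 40.7 FPKM in CFPAC-1, and fibronectin (FN1), at 1.03 FPKM in PANC-1 and 23.5 FPKM in CFPAC-1, were lower. With IKE, 0 of the epithelial markers were called by limma in either line (1 in CFPAC-1 and 0 in PANC-1 at an unadjusted p under 0.05). The share of all genes at that p was 13.6% in CFPAC-1 and 17.6% in PANC-1. In PANC-1, 0 of the mesenchymal markers were called (0 at an unadjusted p under 0.05). In CFPAC-1, where 0.864% of all genes were called higher, 1 mesenchymal marker rose. It was FN1, at 34.6 and 33.6 FPKM with IKE against 23.5 and 23.4 FPKM with DMSO (log2 fold change 0.52 ± 0.11 SE, adjusted p = 0.0488, limma). That call held without PANC-1 IKE replicate 2 or 3 and was lost without each of the other 8 libraries (adjusted p from 0.0277 to 0.224). It was also lost with a pseudocount of 0.1 or 0.5, with no filter on low values, with the replicate block and with a transcript length trend removed. The part of these markers in the S100 levels was not tested. Across the 10 libraries S100A4 was most like S100A10 (r = 0.980) and S100A13 most like S100A16 (r = 0.957). Like the other values over the 10 libraries, these mostly rank genes by group means. S100P was most like S100A14 (r = 0.845), although S100P differed with IKE in both lines and S100A14 stayed below 0.2 FPKM in PANC-1.

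**Figure D5:**
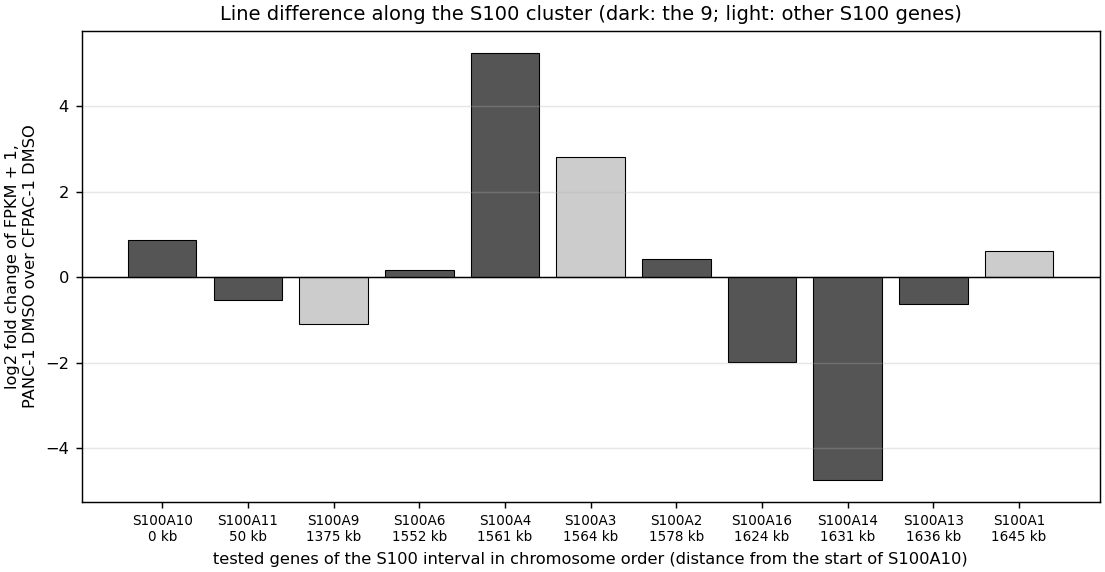
Log2 fold change of FPKM + 1 between PANC-1 and CFPAC-1 with DMSO for the 11 tested genes of the 1q21 interval, in chromosome order with the distance of each gene from the start of S100A10; dark bars are genes of the 9 and light bars other S100 genes. Bars rise to 5.25 at S100A4 and drop to -4.75 at S100A14, 2 genes of the same cluster.

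The 1q21 interval from S100A10 to S100A1 spans 1649.1 kb and holds 64 genes of the table. Of these, 11 passed the filter on low values, and each of the 11 is an S100 gene. Along the interval the sign of the fold between PANC-1 and CFPAC-1 changed among neighbours. It was positive from S100A6 through S100A4 and S100A3 to S100A2, of which S100A4 and S100A3 were called, and negative from S100A16 through S100A14 to S100A13, all called. S100A3 lies inside S100A4 on the same strand, so its value may share reads with S100A4, and S100A13 overlaps S100A1 on the opposite strand. On chromosome 4, none of the 9 tested neighbours of S100P was called with IKE in limma in either line, and 2 in each line (22.2%) had an unadjusted p under 0.05, where 13.6% of all genes did in CFPAC-1 and 17.6% in PANC-1. MRFAP1L1, the nearest at 10.5 kb to the right, averaged 21.0 FPKM with IKE and 20.5 FPKM with DMSO in CFPAC-1, and 14.7 FPKM with IKE and 13.8 FPKM with DMSO in PANC-1.

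Of the 12 other S100 genes, 3 passed the filter and were tested, and 0 were called with IKE by limma in either line. At an unadjusted p under 0.05 there were 1 in CFPAC-1 and 0 in PANC-1, where 13.6% and 17.6% of all genes had one. Their median fold was -0.14 in CFPAC-1 and 0.23 in PANC-1. S100A3 had log2 fold changes of 0.39 (adjusted p = 0.358, limma) in CFPAC-1 and 0.24 (adjusted p = 0.452) in PANC-1. S100A1 had -0.26 (adjusted p = 0.517) and 0.23 (adjusted p = 0.419), and S100A9, a subunit of calprotectin, -0.14 (adjusted p = 0.82) and 0.05 (adjusted p = 0.918). With DMSO, S100A9 was listed at 0 in both PANC-1 libraries and at 0.74 and 1.66 FPKM in CFPAC-1. S100A3 and S100A1 passed the filter through PANC-1 alone and S100A9 through CFPAC-1 alone. CFPAC-1 had S100A3 at 0.15 and 0.63 FPKM with IKE, against 0.09 and 0 FPKM with DMSO. Its S100A1 values were 0.25 and 0 FPKM with IKE, against 0.37 and 0.31 FPKM with DMSO. S100A9 in PANC-1 with IKE was at 0 to 0.15 FPKM. These levels are too low for a fold, and the medians include them. S100A7, S100A7A, S100A7L2, S100A12, S100B and S100G were listed at 0 in all libraries. None of 7 genes of the fused type, in which S100 sequence is joined to a long filaggrin-like tail, passed the filter.

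Among proteins that S100 members bind inside cells, 20 of 22 genes were tested. With IKE in CFPAC-1, where 0.864% of all genes were called higher and 0.459% lower, 0 rose and 1 fell. That gene was EZR, which encodes ezrin, the partner of S100P. EZR fell to 263 and 258 FPKM with IKE in CFPAC-1, against 325 and 321 FPKM with DMSO (log2 fold change -0.31 ± 0.06 SE, adjusted p = 0.0209, limma). In PANC-1 it had 117, 125, 122 and 124 FPKM with IKE, against 106 and 106 FPKM with DMSO (0.20 ± 0.05, adjusted p = 0.0579). The IKE libraries lay below DMSO in CFPAC-1 and above it in PANC-1, and the difference of the responses was called (0.52 ± 0.08, adjusted p = 0.0176). Without any 1 of the 4 CFPAC-1 libraries the fall was not called, with adjusted p from 0.013 to 0.173 over all 10 omissions. The difference was not called without any 1 of the CFPAC-1 or PANC-1 DMSO or CFPAC-1 IKE libraries, with adjusted p from 0.0146 to 0.106. The fall was also not called with the replicate block, nor was the difference with that block or with PANC-1 IKE replicates 1 and 2 alone. In PANC-1, 0 of the 20 partners were called with IKE by limma, and 5 had an unadjusted p under 0.05, where 17.6% of all genes did. The median fold of the partners was -0.07 in CFPAC-1 and -0.03 in PANC-1.

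Of 5 cell surface receptor genes, 4 were tested and 0 were called with IKE by limma in either line. At an unadjusted p under 0.05 there were 1 in CFPAC-1 and 0 in PANC-1, where 13.6% and 17.6% of all genes had one. The median fold was -0.20 in CFPAC-1 and 0.07 in PANC-1. AGER, the receptor for S100P, had a log2 fold change of -0.19 (adjusted p = 0.652, limma) in CFPAC-1 and 0.15 (adjusted p = 0.592) in PANC-1. The smallest adjusted p was that of BSG, basigin, in CFPAC-1 (-0.23, adjusted p = 0.261) and of EGFR in PANC-1 (0.10, adjusted p = 0.425). With DMSO, AGER was lower in PANC-1 than in CFPAC-1 by a log2 fold change of -1.57 (adjusted p = 1.16e-06).

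In the plasminogen system, which S100A10 serves as a receptor subunit, 7 of 8 genes were tested. By limma 0 were called with IKE in CFPAC-1, with a median fold of -0.00. At an unadjusted p under 0.05 there were 3, where 13.6% of all genes had one. The smallest adjusted p in CFPAC-1 was that of PLAT, tissue plasminogen activator (-0.52, adjusted p = 0.0546).

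Of 30 other EF-hand calcium sensors, 27 were tested, and by limma 0 were called in CFPAC-1 (8 at an unadjusted p under 0.05, where 13.6% of all genes had one) and 1 rose in PANC-1, where 1.21% of all genes did. The median fold was -0.00 in CFPAC-1 and 0.02 in PANC-1. RCN1, reticulocalbin of the endoplasmic reticulum, had 89.2, 88.2, 89.8 and 96.8 FPKM in PANC-1 with IKE, against 61.4 and 65.4 FPKM with DMSO (log2 fold change 0.51 ± 0.06 SE, adjusted p = 0.00177, limma). In CFPAC-1 it had 33.1 and 33.5 FPKM with IKE, against 26.4 and 27.5 FPKM with DMSO (0.29 ± 0.07, adjusted p = 0.0628), and the difference of the responses was not called (adjusted p = 0.358).

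Among 18 other marker genes of pancreatic cancer, 15 were tested, and 0 were called with IKE in CFPAC-1 by limma. At an unadjusted p under 0.05 there was 1, where 13.6% of all genes had one. The median fold was -0.03 in CFPAC-1 and -0.01 in PANC-1. In PANC-1, 1 fell, where 1.17% of all genes did. It was AGR2, a protein disulfide isomerase of secretory cells. AGR2 had 120, 130, 122 and 118 FPKM with IKE, against 143 and 150 FPKM with DMSO (log2 fold change -0.26 ± 0.06 SE, adjusted p = 0.0389, limma). That call held without PANC-1 IKE replicate 2 and was lost without each of the other 9 libraries, with adjusted p from 0.0134 to 0.216. It was also lost with no filter on low values, in a fit per line, with the replicate block and with PANC-1 IKE replicates 1 and 2 alone. In CFPAC-1 the smallest adjusted p was that of TFF2, a secreted trefoil peptide (0.43, adjusted p = 0.278). With DMSO, 12 of the 15 were lower and 2 higher in PANC-1 than in CFPAC-1, where 35.2% of all genes were lower and 43.4% higher. S100P was lower in PANC-1 with DMSO, by 2.69 ± 0.21 on the log2 scale.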

How the data were processed

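RNA from the surviving cells was isolated with Trizol, freed of rRNA and copied with random primers into libraries whose second strand was digested, per the labels' protocols. Per the submitters' processing notes, the tools included HISAT2 2.1.0 and StringTie 1.3.4, besides fastp 0.18.0, Bowtie2 2.2.8 and DESeq2, with build GRCh38. What each did, the annotation and any use of strand were not stated in the material at hand. The authors deposited FPKM, rounded to 2 decimals, for 20289 genes in 10 libraries; 9 further, empty columns were not used. Depth is unknown.

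The labels call the replicates bioreplicates without saying that cultures were separate, so the tests cover the spread among these libraries alone, which may be technical. The members, the gene lists, the motifs and the naming rule were chosen with earlier results of these data known. The 13077 genes that reached 1 FPKM in 2 or more libraries were fitted as log2(FPKM + 1), which understates changes of low genes. limma 3.58.1 in R 4.3.3 was used with a mean per group, trended variance (6 residual and 5.1 prior degrees of freedom), two-sided tests, Benjamini-Hochberg adjustment over all genes and a threshold of 0.05. The fit was checked on simulated data.

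Named besides the 9 are each called gene of the lists in an IKE comparison, or the smallest p where there is none, the 6 genes most like S100P by each measure, and its neighbours; some results under this rule are not reported here. EPCAM, KRT8, KRT18, KRT19, CDH1, VIM, ZEB1, CDH2, FN1, PTPRC, LYZ, CD68, PECAM1, COL1A1, KRT10, AGER, MRFAP1L1 and RPS29 were added as context. Alternatives were the pseudocount, the filter, the scaling, a fit per line, the replicate number as a block, the first 2 PANC-1 IKE replicates without the others, and the omission of each library in turn. The last 2 PANC-1 IKE replicates without the others and removal of a transcript length trend were added after seeing the data. Motifs and figures used Python 3.11.15, numpy 2.4.6, pandas 2.3.3 and matplotlib 3.10.9.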

Additional observations from a re-analysis of the deposited data

Results flagged for a closer look

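The IKE response of EZR, which encodes ezrin, differed between the lines by the test of the difference itself, by 0.5161 on the log2 scale (PANC-1 minus CFPAC-1, adjusted p = 0.0176 in limma). That call was lost under 8 of 20 alternatives: with the replicate block, with PANC-1 IKE replicates 1 and 2 alone, and without any 1 of the CFPAC-1 or PANC-1 DMSO or CFPAC-1 IKE libraries. The block and that pair rest on the same PANC-1 IKE libraries, since replicates 3 and 4 have no DMSO library of their number. EIF1, among the genes most like S100P, had 403, 406, 369 and 410 FPKM in PANC-1 with IKE, and its value in replicate 3, 368.98 FPKM, stood apart from the other three by the 95% limit of Dixon's test. Chance gives such a gap in about 1 of 20 groups. The same replicate had the lowest S100P and S100A6 of its group but the highest S100A11, at 199 FPKM. Mitochondrial genes took 5.27% of its FPKM sum, the highest share of all libraries, against 3.13%, 3.65% and 3.76% in replicates 1, 2 and 4. The part of that share in these values was not tested.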

How the results depend on the processing

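As a description of a gene chosen for its rise, the CFPAC-1 fold of S100P ran from 1.269 to 2.014 with a library left out, and its PANC-1 fold was 2.649 and 2.092 with a pseudocount of 0.1 and 0.5. In CFPAC-1, 1 of the 9 genes rather than 2 was called with a pseudocount of 0.1 or 0.5, no filter or a fit per line, and 1 to 2 with a library left out. In PANC-1, 2 rather than 1 were called under quantile normalization, and 1 to 2 with a library left out. Of 707 recomputed folds of the 9 genes, 49 moved by more than the residual spread between replicates and 0 of the called folds changed direction; 11 lost a call and 4 gained one. Over all genes, 173 were called in CFPAC-1 with IKE, 262 under quantile normalization and 80 to 256 with a library left out. In PANC-1, 311 were called, 116 in a fit per line, 172 with IKE replicates 1 and 2 alone, 471 with replicates 3 and 4 alone and 42 to 504 with a library left out. The difference of the responses had 44 calls, 17 and 69 with those replicate pairs and 13 to 62 with a library left out. The cause of these moves was not tested.

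The correlation of deviations between same-numbered IKE and DMSO libraries was -0.00 in CFPAC-1 and 0.12 and -0.03 in PANC-1. With 2 DMSO libraries in each line, the deviation of 1 is the mirror of the other. These values therefore cannot decide whether the numbers pair the samples. With the replicate block, 79 genes were called in CFPAC-1 with 1 of the 9 among them, 63 in PANC-1 and 2 for the difference. Under the block the PANC-1 folds rest on IKE replicates 1 and 2. That of S100P was 1.733, as with those replicates alone. The block was not run for PANC-1 against CFPAC-1 with DMSO, since it lies within the lines. At least 5 FPKM in 2 libraries left out S100A2. Unknown depth limits the low values most, those of S100A2, S100A14 in PANC-1 and S100P in PANC-1 with DMSO.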
